A study of Homo sapiens with 6 samples.

Results

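CD74, 3 further genes of the MHC class II route with their master activator, and 4 immune checkpoint ligands were followed in sequenced messenger RNA of the human breast cancer line MDA-MB-231, whose cells have a mesenchymal character. The 9 genes were chosen by symbol: CD74, HLA-DRA, HLA-DRB1, HLA-DMA, CIITA, CD274, PDCD1LG2, CD276 and CD47. All 9 were present among the 28979 gene IDs of the count tables. The choice was made with earlier results of the same Ang against Con comparison in view, so the differences between groups below are descriptions and support nothing by themselves. The groups carry the labels Con (3 libraries) and Ang (3 libraries), and every library is labelled MDA-MB-231. The series design speaks of breast cancer cells given exosomes, small secreted vesicles, of normal or of hypertrophic cardiomyocytes, and its title names AC16 cells. No label says which exposure Con or Ang received, at what dose or for how long, and the control is not described further. Whether the 3 libraries of a group are separate cultures is not stated, and p-values here reflect library-to-library spread that may be technical.

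MHC class II molecules show peptides from the endosomal route to CD4+ T cells. CIITA switches on the class II genes together with factors that sit on their promoters, and interferon gamma is its classical inducer. HLA-DRA and HLA-DRB1 encode the alpha and beta chains of HLA-DR, CD74 encodes the invariant chain that fills the groove of new class II molecules and takes them to endosomes, and HLA-DMA encodes a chain of HLA-DM, which exchanges the last invariant chain fragment for peptide. CD74 is also a surface receptor for the cytokine MIF. Checkpoint ligands restrain immune cells: CD274 encodes PD-L1 and PDCD1LG2 encodes PD-L2, both ligands of PD-1 on T cells, CD276 encodes the related B7-H3, and CD47 gives macrophages a "do not eat me" signal through SIRPA.

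Total counts ran from 3369212 to 5437190 per library, and levels are CPM, the count relative to the library total with TMM scaling. MDA-MB-231 genes were abundant, with VIM at 928 ± 152 and 1032 ± 49.6 CPM (SD, n = 3 each) in Con and Ang and FN1 at 312 ± 52.8 and 377 ± 13.3 CPM. The 7 luminal and epithelial breast genes were uneven. ESR1, the oestrogen receptor gene, had 7 counts over all libraries, PGR 1, CDH1 24 and GRB7 35. ERBB2 had 107 ± 18.0 and 103 ± 16.1 CPM in Con and Ang, EPCAM 9.83 ± 0.362 and 9.76 ± 0.717, and GATA3 4.69 ± 1.92 and 3.14 ± 1.74. All 7 MDA-MB-231 genes had positive log2 fold changes (Ang over Con, median 0.21) and the 3 tested luminal breast genes of 7 negative ones (median -0.05), with 0 past the threshold and overlapping groups for each. Of 20 leukocyte markers, which were listed because leukocytes carry class II and checkpoint genes, 8 had no matching row (among them PTPRC, CD3E, MS4A1 and LYZ) and 2 had enough counts to be tested. Their 12 measured members summed to 15.2 to 18.2 CPM in Con and 13.8 to 14.4 CPM in Ang. For 10 cardiomyocyte markers, 6 with a row, the sums were 7.39 to 19.2 CPM (Con) and 7.63 to 13.9 CPM (Ang). Most of each sum was NPPA, at 6.55 to 17.3 CPM (Con) and 6.05 to 12.4 CPM (Ang). Exons on the other strand cover 25.5% of NPPA. Non-coding genes that lie under a protein-coding gene on the other strand had more counts per base than that coding gene: over 249 such pairs the median ratio was 23.0 in Con replicate 2 and 32.8 to 40.7 in the other 5 libraries. Con replicate 2 also held 28.7% of its counts in genes with no exon on the other strand, against 21.7% to 25.5% elsewhere. Counts of a protein-coding gene are therefore uncertain as a measure of its own messenger RNA. Of the 9 genes, CIITA and HLA-DMA have exon bases under another gene, and the other 7 have none in GENCODE 29. The uncertainty holds for these 7 as well, because the strand that was counted is not stated. Whether counts came from the opposite strand was not tested.

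CD74, the invariant chain gene on chromosome 5 (150401637 to 150412929, minus strand, GRCh38), had the highest level per exon length of the 9 genes. Its counts in Con replicates 1 to 3 were 487, 877 and 376, and in the Ang replicates 529, 611 and 626. Scaled, Con had 103, 148 and 118 CPM, and Ang had 155, 154 and 181 CPM. Every Ang library lay above every Con library, with Con replicate 2 only just below the lowest Ang library. CD74 was the single member whose groups did not overlap, where 8.16% of the 14547 tested genes had groups apart in either direction.

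For CD74, Con averaged 123 ± 23.1 CPM and Ang 163 ± 15.1 CPM (SD, n = 3 each). The log2 fold change was 0.41 ± 0.18 (SE), which is 1.32-fold with a 95% confidence interval of 1.04 to 1.69. The edgeR quasi-likelihood test gave an unadjusted p of 0.0223 and an adjusted p of 0.999 over all genes, so CD74 did not pass the threshold of 0.05. At that unadjusted level 3.4% of tested genes were counted, and CD74 was the 218th by size of p. Without Con replicate 2 the log2 fold change was 0.57 ± 0.14 and passed (edgeR adjusted p = 0.0487), in a comparison that called 40 of 14867 genes (0.269%). Con replicate 2 held the highest Con value of CD74, so leaving it out widens the difference. The value was 0.29 ± 0.20 without Con replicate 1 and 0.33 ± 0.21 without Ang replicate 3. In both of these fits 0 members had an unadjusted p under 0.05 by edgeR. Among genes free of exons on the other strand, scaled among themselves, CD74 had 0.40 ± 0.13 (edgeR adjusted p = 0.942), and 0.48 ± 0.13 when Con replicate 2 was left out as well (edgeR adjusted p = 0.0638). Why Con replicate 2 stands apart was not tested, nor was the part of the MDA-MB-231 genes, whose values were also positive, in the CD74 difference. In bulk RNA a change in the number of cells that express a gene and a change in RNA per cell cannot be told apart.

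**Figure D1:**
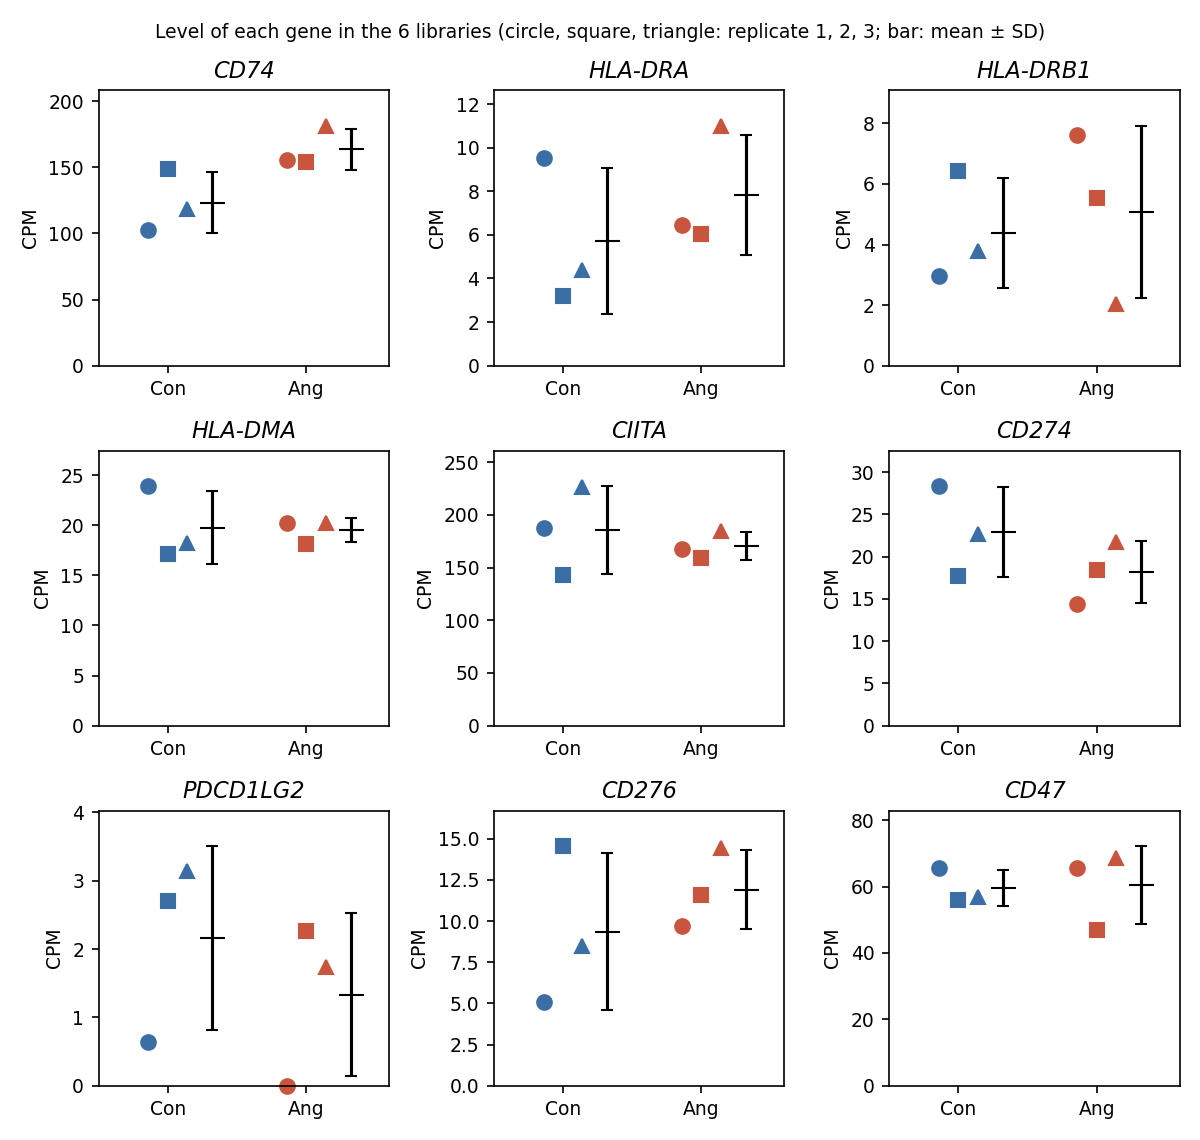
CPM (y axis, from 0, own scale per gene) of the 9 genes in each Con and Ang library, with circle, square and triangle for replicates 1, 2 and 3 and bars for the mean ± SD of 3 libraries. The 3 Ang points of CD74 (154 to 181 CPM) sit above its 3 Con points (103 to 148 CPM), and the points of the other 8 genes overlap between groups.

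Class II genes and CD74 share a promoter element, the Y box, whose core is a CCAAT box read in either direction and bound by the factor NF-Y. RefSeq promoters (GRCh38.p14, from 250 bases before to 50 bases after the start) were matched for 6 of the 9 genes. They are printed for the class II genes so that the shared element can be seen beside their unequal levels, and for CD274 because an interferon element in it is described below. Searched on both strands were CCAAT and the interferon regulatory factor (IRF) motif, a GAAA and a further GAAA with any 2 bases between them, and matches stand in capitals:
CD74, chr5:150412861-150413160, minus strand: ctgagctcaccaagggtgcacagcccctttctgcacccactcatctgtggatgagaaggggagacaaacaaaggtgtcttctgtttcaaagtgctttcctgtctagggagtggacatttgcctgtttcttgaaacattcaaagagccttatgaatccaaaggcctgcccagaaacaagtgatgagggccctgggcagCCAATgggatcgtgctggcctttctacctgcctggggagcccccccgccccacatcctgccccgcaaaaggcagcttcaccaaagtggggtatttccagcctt
HLA-DRB1, chr6:32589799-32590098, minus strand: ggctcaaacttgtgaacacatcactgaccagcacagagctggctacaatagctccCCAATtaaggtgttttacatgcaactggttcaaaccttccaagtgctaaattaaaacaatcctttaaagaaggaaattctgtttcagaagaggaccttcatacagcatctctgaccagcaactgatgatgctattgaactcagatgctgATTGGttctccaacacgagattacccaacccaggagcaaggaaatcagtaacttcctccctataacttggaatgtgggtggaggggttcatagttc
HLA-DMA, chr6:32953048-32953347, minus strand: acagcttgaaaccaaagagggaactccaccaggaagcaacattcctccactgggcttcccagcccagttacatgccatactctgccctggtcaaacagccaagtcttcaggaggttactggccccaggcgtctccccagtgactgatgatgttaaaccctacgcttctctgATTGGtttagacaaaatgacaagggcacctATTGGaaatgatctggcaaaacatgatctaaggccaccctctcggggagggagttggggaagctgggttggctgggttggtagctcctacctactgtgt
CD274, chr9:5450292-5450591, plus strand: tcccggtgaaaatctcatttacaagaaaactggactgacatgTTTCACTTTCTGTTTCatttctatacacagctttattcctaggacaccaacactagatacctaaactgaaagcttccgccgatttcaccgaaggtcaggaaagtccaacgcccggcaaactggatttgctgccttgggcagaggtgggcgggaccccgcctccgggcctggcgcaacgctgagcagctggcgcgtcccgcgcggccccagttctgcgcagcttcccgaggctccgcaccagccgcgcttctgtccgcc

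CD74 held CCAAT at 53 bases before the start, HLA-DRB1 held it reversed at 46 bases and forward at 195 bases, and HLA-DMA held it reversed at 79 and 49 bases. It is not limited to class II genes: 1 of the promoters of CD276, a checkpoint ligand gene, held CCAAT at 107 bases before its start. A match lies in 34.6% of the 35116 RefSeq promoters of this length, so its presence in these promoters is a description and shows no binding. None of the 3 class II promoters held the IRF motif within these windows.

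The other class II genes stood far below CD74. HLA-DRA, on chromosome 6 (32439842 to 32445046, plus strand), had in Con replicates 1 to 3 levels of 9.50, 3.21 and 4.40 CPM and in the Ang replicates 6.46, 6.05 and 11.0 CPM, from 14 to 45 counts a library. The groups overlapped, with Con replicate 1 and Ang replicate 3 high, and the log2 fold change was 0.45 ± 0.47 (SE). HLA-DRB1, on chromosome 6 (32578769 to 32589848, minus strand), had Con values of 2.96, 6.42 and 3.77 CPM and Ang values of 7.63, 5.55 and 2.02 CPM, from 7 to 38 counts. Ang held both its highest and its lowest library, and the log2 fold change was 0.19 ± 0.57. Reads of HLA-DRB1 can be shared with other DRB genes, whose alleles differ between people and cell lines. HLA-DRB5, its near copy, had 15 counts in all. The alpha and beta chain genes of HLA-DR did not move together across libraries: HLA-DRA was lowest in Con replicate 2, where HLA-DRB1 was the second highest, and highest in Ang replicate 3, where HLA-DRB1 was lowest.

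HLA-DMA, on chromosome 6 (32948613 to 32969094, minus strand), was the steadiest of the 9 genes. Con libraries had 23.9, 17.1 and 18.2 CPM, Ang libraries 20.2, 18.2 and 20.2 CPM, and its highest library was 1.40 times its lowest. Con replicate 1 stood above the other 5 libraries and the groups overlapped. The log2 fold change was -0.02 ± 0.29, with an interval of 0.667 to 1.47 on the fold scale. BRD2 on the other strand covers 55 of its 2534 exon bases (2.17%) and averaged 132 ± 20.0 CPM (Con) and 130 ± 6.72 CPM (Ang).

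CIITA, the class II activator on chromosome 16 (10866222 to 10943021, plus strand), had more counts than CD74 in every library except Con replicate 2. Con replicates 1 to 3 held 888, 848 and 719 counts, or 188, 143 and 226 CPM. Ang replicates 1 to 3 held 572, 632 and 641 counts, or 168, 159 and 185 CPM. The Ang libraries lay within the range of the Con libraries, and the log2 fold change was -0.12 ± 0.17. Without Con replicate 2, its lowest library, the value was -0.27 ± 0.13 and did not pass (edgeR adjusted p = 0.402), with an interval of -0.53 to -0.02. The annotated exons of CIITA cover 20757 bases, and 12.4% of them lie under exons on the other strand. Of these, 2416 bases lie under DEXI, a gene on the minus strand of chromosome 16 (10928891 to 10942460), and make up 36.1% of the exon bases of DEXI. DEXI had 34, 52 and 38 counts in Con and 28, 67 and 55 in Ang. CIITA had 26.1, 16.3 and 18.9 counts per count of DEXI in Con and 20.4, 9.43 and 11.7 in Ang. How many of the CIITA counts came from RNA of DEXI was not tested, so the level of CIITA is uncertain.

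**Figure D2:**
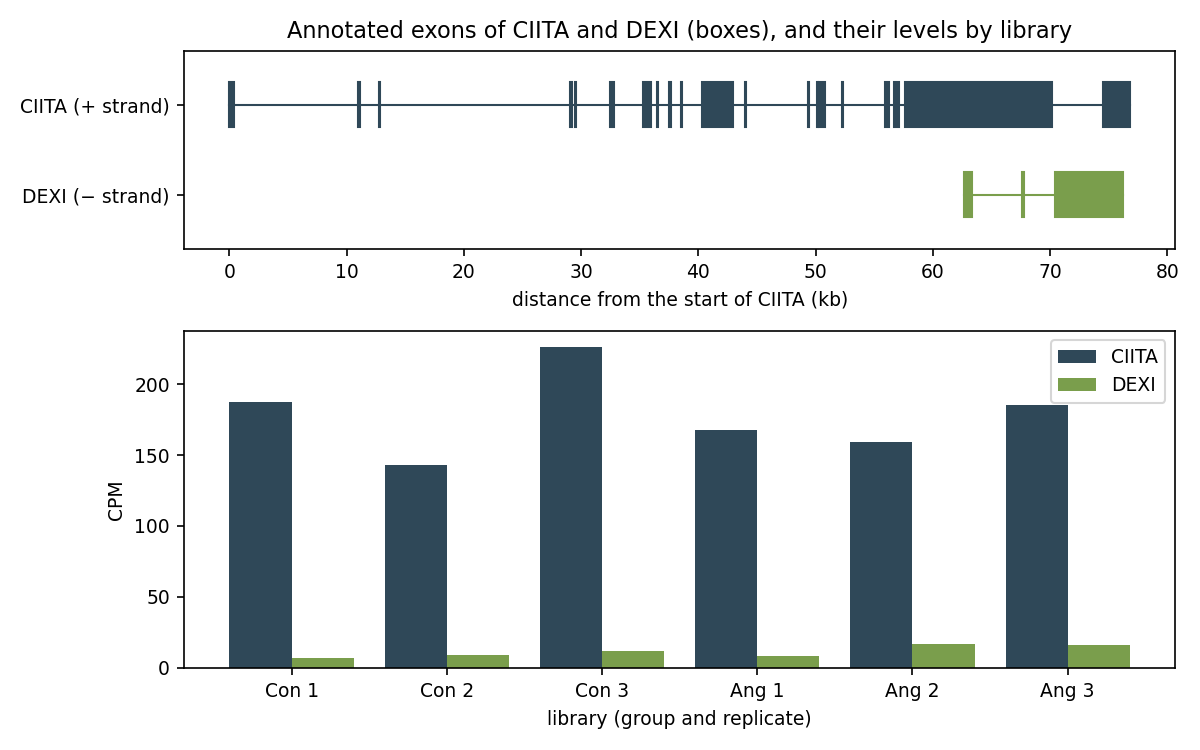
Top, annotated exons of CIITA and DEXI (boxes) by distance from the start of CIITA in kilobases, on opposite strands; bottom, CPM of both genes in each library (bars from 0). The DEXI exons fall in the last part of CIITA, and CIITA is above DEXI in all 6 libraries, at 143 to 226 against 7.18 to 16.9 CPM.

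Among the checkpoint ligands, CD274, the PD-L1 gene on chromosome 9 (5450503 to 5470566, plus strand), was detected in every library with 49 to 134 counts. Con replicates 1 to 3 stood at 28.3, 17.7 and 22.6 CPM, and Ang replicates 1 to 3 at 14.4, 18.4 and 21.7 CPM. Ang replicate 1 was the lowest and Con replicate 1 the highest, and the other 4 libraries overlapped. Con averaged 22.9 ± 5.28 CPM and Ang 18.1 ± 3.65 CPM, and the log2 fold change, -0.33 ± 0.29, was opposite in sign to that of CD74. Its promoter held overlapping IRF motifs at 208 and 202 bases before the start, a motif found in 3.57% of all RefSeq promoters of this length.

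PDCD1LG2, the PD-L2 gene on chromosome 9 (5510570 to 5571254, plus strand), was the lowest of the 9 genes and was not tested, since it did not reach the count filter. Its counts were 3, 16 and 10 in Con replicates 1 to 3, then 0, 9 and 6 in the Ang replicates. The count of 0 in Ang replicate 1 allows up to 0.880 CPM. Over the groups, 29 counts in Con and 15 in Ang gave a depth-scaled ratio of 0.660, Ang over Con, with an exact binomial (Clopper-Pearson) interval of 0.329 to 1.27 for counting error only. A difference was not detectable at this depth.

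CD276, the B7-H3 gene on chromosome 15 (73683966 to 73714518, plus strand), had Con values of 5.07, 14.5 and 8.49 CPM and Ang values of 9.68, 11.6 and 14.4 CPM, from 24 to 86 counts. Con held both the highest and the lowest library, and the log2 fold change was 0.33 ± 0.38. Without Con replicate 2, its highest library, the value was 0.84 ± 0.44 and did not pass (edgeR adjusted p = 0.482). CD47, on chromosome 3 (108043094 to 108091862, minus strand), had Con values of 65.7, 56.0 and 56.9 CPM and Ang values of 65.7, 46.9 and 68.5 CPM. Ang held both ends of the range, and the log2 fold change was 0.02 ± 0.20. Its interval on the fold scale ran from 0.771 to 1.33.

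Of the 8 tested genes, 0 passed the threshold, with an adjusted p of 0.999 for each by the edgeR quasi-likelihood test, and 0 passed by DESeq2 or limma-voom. Over all genes edgeR called 0 of 14547 (0%), with 494 at an unadjusted p under 0.05, CD74 alone among the 8. CD74, HLA-DRA, HLA-DRB1, CD276 and CD47 had positive log2 fold changes and HLA-DMA, CIITA and CD274 negative ones. Their median was 0.10, against -0.01 over all tested genes, of which 49.2% were positive. The intervals of CD47, CIITA and HLA-DMA lay within 1.5-fold in both directions, and those of HLA-DRA, HLA-DRB1 and CD276 reached beyond 2-fold.

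**Figure D3:**
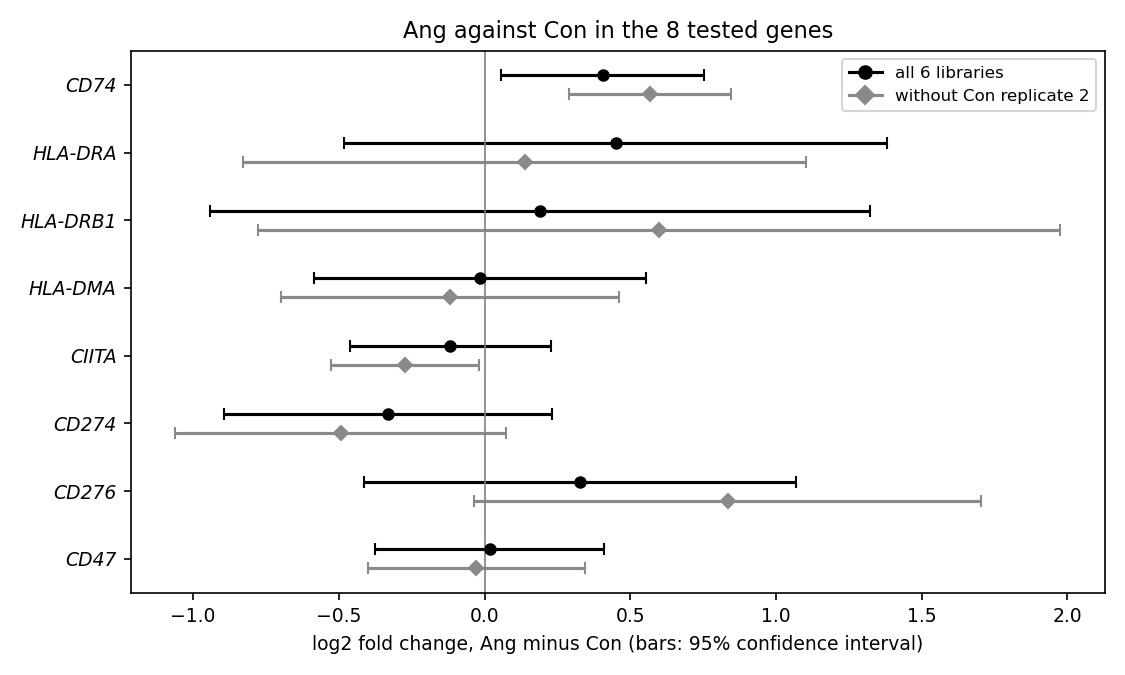
Log2 fold change (x axis, Ang minus Con) with 95% confidence interval for the 8 tested genes, in all 6 libraries (black circles) and without Con replicate 2 (grey diamonds). The CD74 intervals lie above 0 in both, at 0.41 and 0.57, and those of the other genes include 0 with all libraries. Without Con replicate 2 the interval of CIITA lies below 0, at -0.27, and those of the other 6 genes include 0.

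Ordered by CPM per kilobase of exon over the 6 libraries, CD74 came first at 45.0 ± 8.83 (SD), followed by CIITA at 8.59 ± 1.38, HLA-DMA at 7.75 ± 0.955, CD47 at 7.29 ± 0.994, HLA-DRA at 5.29 ± 2.32, CD274 at 4.996 ± 1.17, HLA-DRB1 at 3.84 ± 1.76, CD276 at 1.92 ± 0.661 and PDCD1LG2 at 0.739 ± 0.516. CD74 did not overlap with CIITA over the 6 libraries, and every later pair of neighbours overlapped. The place of CIITA depends on its annotated length of 20757 exon bases, which includes 1 block from 57656 to 70166 bases after its start. Before division by length CIITA averaged 178 CPM and CD74 143 CPM over the 6 libraries. Whether the RNA of these cells contains that block was not tested. Per length of the longest transcript, CD74 stayed first, HLA-DMA and CIITA changed places, and so did CD274 and HLA-DRA. CD74 stood above 95.9% of the 11107 tested protein-coding genes per kilobase, CIITA above 75.3%, CD274 above 60.9% and CD276 above 30.6%. Per kilobase, CD74 was 4.35 to 18.6 times HLA-DRA, 7.85 to 34.5 times HLA-DRB1 and 3.43 to 7.12 times HLA-DMA within a library. For HLA-DRA the lowest and highest ratios were both in Con libraries, replicates 1 and 2.

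**Figure D4:**
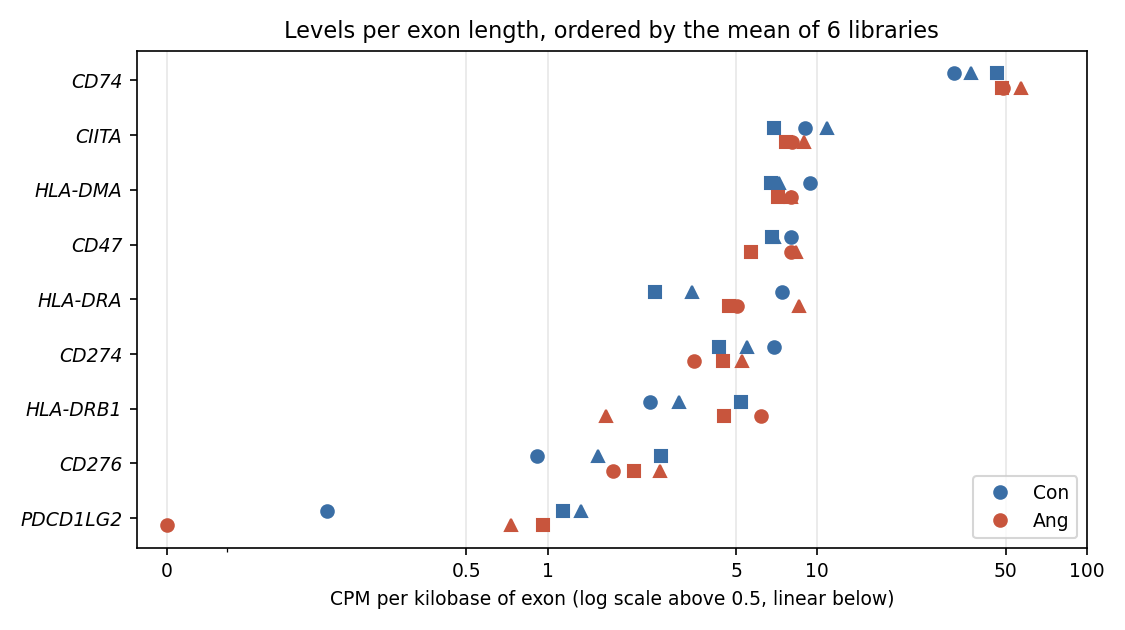
CPM per kilobase of exon (x axis, log scale above 0.5 and linear below) of the 9 genes in the 3 Con (blue) and 3 Ang (red) libraries, with circle, square and triangle for replicates 1, 2 and 3. CD74 lies apart at 32.3 to 56.8, and neighbours below it overlap down to PDCD1LG2, which is at 0 in Ang replicate 1.

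Further genes of these pathways were taken from 7 lists, chosen by function with earlier results known. Of their 83 genes, 75 had a row, 51 could be tested, and 0 passed in either direction, with 29 positive and 22 negative log2 fold changes and a median of 0.01. In the class II list, 7 of 16 measured genes were tested, 5 positive and 2 negative, with a median of 0.22. HLA-DPA1 was the single class II chain gene among those tested, and the rest (CTSS, CTSB, CTSD, CTSL, LGMN and SPPL2A) encode proteases. The median therefore says little about class II chains. HLA-DPA1, the alpha chain gene of HLA-DP, averaged 18.7 ± 1.27 CPM (Con) and 21.9 ± 5.74 CPM (Ang). HLA-DPB1, its partner chain gene, was not tested and had 24 counts in Con and 13 in Ang. Its depth-scaled ratio was 0.691, Ang over Con, with an interval of 0.323 to 1.41 for counting error only. HLA-DQB1 had 5 counts, HLA-DMB, the partner chain gene of HLA-DMA, 25 counts and HLA-DOB 1 count in all. Among endosomal proteases, CTSS, which trims the invariant chain, had 10.5 ± 5.31 and 15.1 ± 6.15 CPM (0.54 ± 0.36), CTSD 24.8 ± 7.97 and 34.2 ± 6.59 CPM (0.45 ± 0.25), and CTSB 177 ± 21.1 and 199 ± 13.1 CPM (0.17 ± 0.17). The 2 negative values of this list were also of endosomal proteases, CTSL with 44.2 ± 12.4 and 43.1 ± 2.74 CPM (-0.05 ± 0.22) and LGMN with 31.0 ± 9.996 and 29.4 ± 1.77 CPM (-0.08 ± 0.25).

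All 6 tested class II promoter factors had negative values, with a median of -0.04 and 0 past the threshold. RFX5, which binds the X box of these promoters, averaged 25.5 ± 2.32 CPM (Con) and 20.4 ± 5.76 CPM (Ang) (-0.33 ± 0.27). NFYB, a subunit of the CCAAT binder NF-Y, had a log2 fold change of -0.18 ± 0.29 and CREB1 one of -0.05 ± 0.22. Without Con replicate 1 that of CREB1 was 0.08, so the shared sign did not hold without that library. Interferon gamma signalling had 5 positive and 6 negative values among 11 tested genes and a median of -0.04. IFNGR2, a receptor chain gene, had 0.31 ± 0.21, IRF1, the interferon regulatory factor, -0.24 ± 0.23, and SOCS3, a feedback inhibitor, -0.58 ± 0.68 from 60 counts in Con and 29 in Ang. Exons on the other strand cover 22.0% of IRF1, 12.8% of IFNGR2 and 9.83% of RFX5. Of genes named in other paragraphs, they cover 24.4% of VIM, 15.8% of CTSD, 9.95% of CALR and 19.6% of RBPMS-AS1.

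Of 6 listed ligands and co-receptors of CD74, 5 had a row and 2, CD44 and MIF, were tested. CXCR4 had 17 counts over all libraries, DDT 3 and CXCR2 1. CD44, the signalling co-receptor of CD74, averaged 426 ± 49.1 and 498 ± 26.8 CPM for Con and Ang (0.22 ± 0.17). MIF, the ligand of CD74, had 18.3 ± 3.46 and 19.3 ± 6.90 CPM. Another gene's exons cover 61.9% of MIF. Of 26 genes in the list of other checkpoint ligands, 20 had a row and 11 were tested. These 11 had 8 positive and 3 negative values and a median of 0.03. They include genes that are not ligands, among them CD40 and NT5E, so the median is not of checkpoint ligands alone. CD40, a costimulatory receptor gene, had 7.30 ± 3.55 and 11.8 ± 2.08 CPM (0.73 ± 0.40), NECTIN3 had 13.3 ± 0.745 and 17.7 ± 4.93 CPM (0.41 ± 0.32), and CEACAM1 had -0.44 ± 0.69 from 52 and 31 counts. Without Ang replicate 3 the value of CEACAM1 was -1.15, and leaving out any other library gave -0.65 to -0.14. NT5E, which encodes the adenosine-producing enzyme CD73, was high at 337 ± 28.5 and 341 ± 29.8 CPM.

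Genes that handle PD-L1 protein had 4 positive and 5 negative values and a median of -0.01. HIP1R, which directs PD-L1 to lysosomes, averaged 21.9 ± 8.14 CPM (Con) and 31.9 ± 5.05 CPM (Ang) (0.53 ± 0.26) and was the single gene of the 51 tested in the 7 lists with an unadjusted p under 0.05 by edgeR, a level that 3.4% of all tested genes reached. Its value was 0.31 without Con replicate 1 and 0.89 without Con replicate 2. ZDHHC3, a palmitoyltransferase gene, had 0.24 ± 0.25 and CMTM4, a stabiliser of PD-L1, -0.24 ± 0.28. In the CD47 pathway, 5 of 5 values were at or above 0, with a median of 0.03. THBS1, a thrombospondin ligand of CD47, had 157 ± 22.2 and 176 ± 17.4 CPM (0.17 ± 0.17), CALR, the calreticulin "eat me" signal, 739 ± 101 and 775 ± 59.2 CPM (0.07 ± 0.17), and LRP1, its receptor, 80.6 ± 21.2 and 82.7 ± 6.06 CPM (0.03 ± 0.19). The shared sign did not hold when 1 library was left out: LRP1 was at -0.02 without Con replicate 1, -0.13 without Con replicate 3 and -0.03 without Ang replicate 3, and CALR at -0.02 without Con replicate 3.

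**Figure D5:**
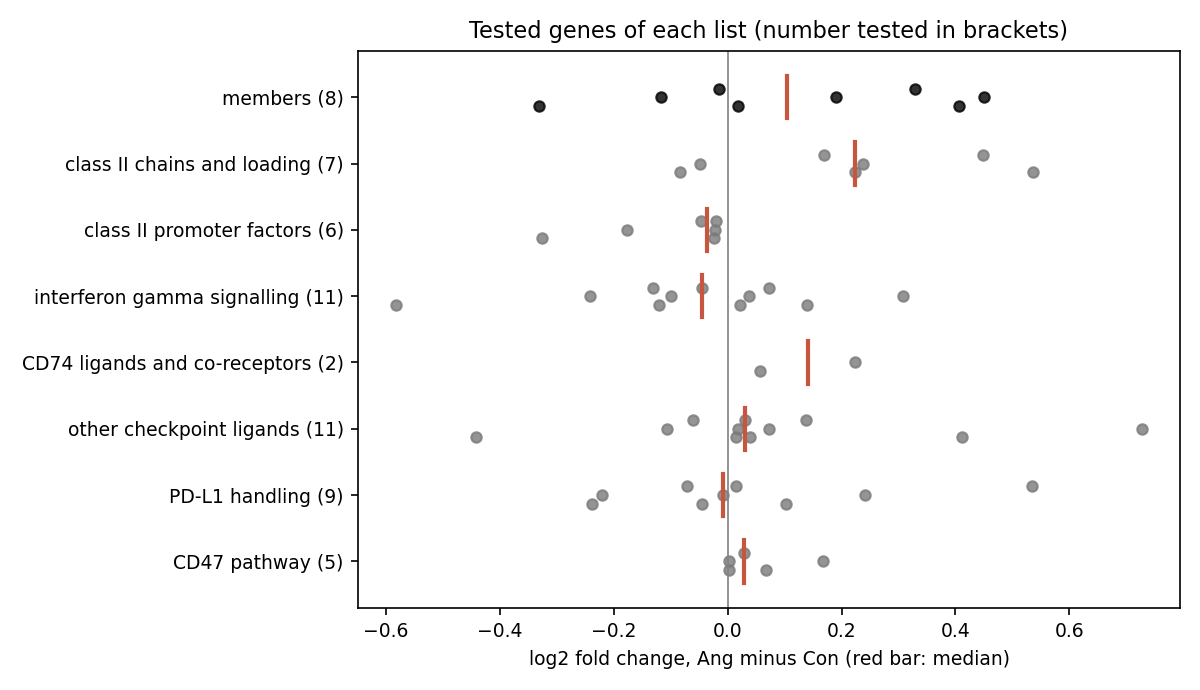
Log2 fold change (x axis, Ang minus Con) of each tested gene of the members (black) and of the 7 pathway lists (grey), with the median of a list as a red bar and the number tested in brackets. List medians run from -0.04 for the class II promoter factors and interferon gamma signalling to 0.22 for the class II chains and loading genes. The tested genes of that last list are HLA-DPA1 and proteases.

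The pattern of CD74 over the 6 libraries was most like those of RBPMS-AS1 (Pearson r of log2 CPM 0.994), PPWD1 (0.992) and LIF (0.984), among 8537 genes averaging 10 CPM or more. CD274 was most like MKLN1-AS (0.994) and MRPS36 (0.986). With 6 libraries and this many genes these values are a description of likeness. The libraries differ in depth and strand properties, and the part of these differences in the likeness was not tested.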

How the data were processed

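The authors deposited 1 table of unnormalised read counts for each of 3 Con and 3 Ang libraries, by Ensembl ID; every listed gene had at least 1 count in some library. Per the submitters' processing notes HTSeq 0.9.1, DESeq 1.39.0 and GRCh38 were used. The labels' protocols name no strand-marking step. Not given in the sources used here: aligner, annotation release, strand setting. Symbols matched 28918 of 28979 IDs. Coordinates, exons and overlaps come from GENCODE 29 (GRCh38) through bedtools 2.31.1.

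Counts were filtered with filterByExpr, TMM scaled and tested across all genes with edgeR 4.0.16 (robust quasi-likelihood, Benjamini-Hochberg, threshold 0.05) in R 4.3.3. SE is the log2 fold change over the root of F. The fit was tested on simulated data. Alternatives used RLE scaling, other filters, DESeq2 1.42.0, limma 3.58.1 (voom), a replicate block and leaving out each library; 2 fits on genes free of opposite-strand exons were added after seeing the data. Members and lists were chosen with earlier results of these data known. Named genes were all members, up to 3 tested genes of smallest p per list, the 3 genes most like CD74 and CD274, and overlapping or near-identical genes; markers and further list genes were named after their values were seen. Intervals from counts cover counting error only. The values of 1 gene that the naming rule takes are not reported here.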

Additional observations from a re-analysis of the deposited data

How the results depend on the processing

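The alternatives planned beforehand left 0 members called and 0 genes called in all with RLE scaling, with DESeq2, with limma-voom, without a count filter and with a minimum of 1 CPM in 3 libraries. Leaving out 1 library gave 0 to 1 members called, CD74 without Con replicate 2, and 0 to 40 genes: 40 lacking Con replicate 2, 1 lacking Con replicate 1. For both the cause was not tested. The log2 fold change of CD74 ran from 0.29 to 0.57 when 1 library was left out. Chosen after seeing the data, genes free of opposite-strand exons gave 0 genes, and 25 genes but 0 members without Con replicate 2. Of the members' 108 alternative values, 95 stayed on their side of the threshold with the same sign, 1 passed it and 12 changed sign without a call. These 12 were of CD47, HLA-DMA, HLA-DRB1 and CIITA. HLA-DRB1 was at -0.04 without Con replicate 1 and -0.22 without Ang replicate 1, and CIITA at 0.04 without Con replicate 3. HLA-DRA ran from 0.13 to 1.05 and CD276 from 0.02 to 0.84 when 1 library was left out. The replicate block: deviations of same-numbered libraries correlated at 0.037, 0.068 and 0.036, and those of differently numbered ones at -0.0697 to 0.0302. Each library correlated most with its same-numbered partner, but values this small do not establish pairing. The block gave 0 genes and 0 members. Low counts limit HLA-DRA, HLA-DRB1, CD276 and PDCD1LG2 most.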
